A study of Drosophila melanogaster and Drosophila yakuba and Drosophila virilis with 31 samples.

Results

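The comparison described here is that of female with male embryos of the fruit fly Drosophila yakuba (yak). Its members were the 6 libraries labelled as yak embryos, 3 female and 3 male, of 31 libraries in the series. The genes were all 5993 of the deposited table. By the arm of the D. melanogaster (mel) ortholog, 1015 of these genes were on the X chromosome and 4978 on other arms. The yak positions matched that placement for all but a few genes: 1011 of the 1015 were on the yak X, 3 on scaffolds of the yak X with no fixed place and 1 on another scaffold. In the series, messenger RNA was sequenced from single embryos and single unfertilized eggs of mel, yak and the more distant species D. pseudoobscura (pse) and D. virilis (vir), and each gene of the table has a single ortholog in all 4. Each yak library was made from 1 whole embryo of the strain Tai18E2, with no treatment or transgene named in the labels, staged by its shape at the end of the blastoderm stage, when cell membranes have closed and gastrulation has not begun. Females and males shared strain, stage, growth at room temperature and library kit, and differed by labelled sex. The embryos came from many mothers, and each library was a separate individual. The 2 yak egg libraries, from unfertilized eggs of the same strain, were used as the level of maternally supplied RNA. Values were FPKM (fragments relative to transcript length and library size) that the authors scaled so that the 75th percentile of autosomal genes was equal in all libraries. Sequencing depth is unknown, since the values carry no counts of reads, and no interval from counting could be set. In whole embryos, fewer cells that express a gene and less RNA per cell cannot be told apart.

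Background for the comparison comes mostly from mel. A female carries a pair of X chromosomes and a male a single X and a Y. Early zygotic products of X-linked genes, the X signal elements, are made in greater amount in females and switch on Sex lethal (Sxl), an RNA-binding protein that directs female splicing and blocks the product of msl-2. In males msl-2 protein is made and assembles the MSL complex, which coats the single X and raises its transcription. At the blastoderm stage the embryo still holds much RNA that the mother placed in the egg, which is the same for both sexes, while its own genome has only begun to be transcribed in earnest.

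The sex of each embryo was assigned in the study by PCR on DNA from that embryo, and every comparison turns on that label, so the yak primers are shown here. The genes kl-3, a dynein heavy chain of the sperm tail, and Ppr-Y are Y-linked, and run is X-linked, by the mel annotation. The primers are written in lower case from the first to the last base, and no base is marked.
yak_kl3_L: aaactgcgatcggaaatagaacgcatac
yak_kl3_R: gcctatctcttcgttcctgtgtttttgc
yak_ppry_L: tcttgaacgtgaacaatcagaggcaaac
yak_ppry_R: cttcatcgcgctcagtaaatctttccaa
yak_run_L: aagatccccaaaaaccttcccaaaaac
yak_run_R: aagtagtccgcatagccgtaggtcatgt
The primers are 27 or 28 bases long. None of 11 Y-linked genes of a list was among the genes analysed here, so the RNA gave no check of the label from the Y. The level of Sxl, given below, separated the libraries labelled female from those labelled male without overlap.

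The 6 libraries resembled each other closely, with Spearman correlations of 0.958 to 0.985 over 4731 genes with a mean of more than 1 FPKM in these embryos. Male 1 and male 3 were the least alike. In male 1 the deviation of a gene from the mean of the 6 embryos fell with the length of the gene in the yak genome (Spearman's rho across genes −0.41), and in male 3 it rose (0.27). In the other embryos this rho was −0.16 in female 1, 0.24 in female 2, 0.16 in female 3 and −0.07 in male 2. The spread between embryos of the same sex was also larger in yak than in the other species, with a median SD of 0.231 on the log2(FPKM + 1) scale, against 0.170 in mel, 0.167 in pse and 0.148 in vir. Genes that mark embryo age differed between single embryos: the median deviation of nullo, bnk and slam, which act in cellularization, was −0.10, 0.60 and 0.41 in the females and 0.25, −0.08 and −1.28 in the males, with male 3 far below the rest. For 6 genes that rise towards gastrulation it was 0.09, −0.19 and 0.21 in the females and −0.48, 0.08 and 0.18 in the males, with male 1 lowest. Of 20 follicle, eggshell and yolk protein genes, 4 were in the table and 1 passed 1 FPKM, and Yp3, a yolk protein, stood between 0.207 and 0.399 FPKM in all 6 embryos. None of the genes on these lists of age and cell type was called different between females and males. The part of age, gene length and library in the results below was not tested, except where a value without a library or within a class of length is given.

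The first question was whether the X as a whole differed between female and male embryos, and whether any other arm did. X-linked RNA was higher in females, and the autosomal arms were level. A score was taken for each embryo: the median, over genes of an arm, of the log2(FPKM + 1) deviation from the mean of the 6 embryos, less the same median over the other autosomal arms. The X score was 0.15, 0.12 and 0.19 in females 1, 2 and 3, against −0.25, −0.07 and −0.17 in males 1, 2 and 3, over 800 X genes with a mean above 1 FPKM. Every female stood above every male, and the males were spread more widely than the females. The female minus male difference was 0.32, larger than the pooled SD within sexes of 0.068 (n = 3 and 3; a two-sided exact permutation test gave p = 0.1, the floor for 3 against 3 embryos). For arms 2L, 2R, 3L and 3R the same difference was 0.01, −0.00, 0.02 and −0.01 (exact permutation p = 0.3, 0.8, 0.2 and 0.3). Within 3 equal classes of genes by length in the yak genome, a division chosen after the data were seen, the X difference was 0.27 in the shortest, 0.33 in the middle and 0.30 in the longest class. Without male 1, which had the lowest score, it was 0.26. A pseudocount of 10 in place of 1 lowered it to 0.17.

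**Figure D1:**
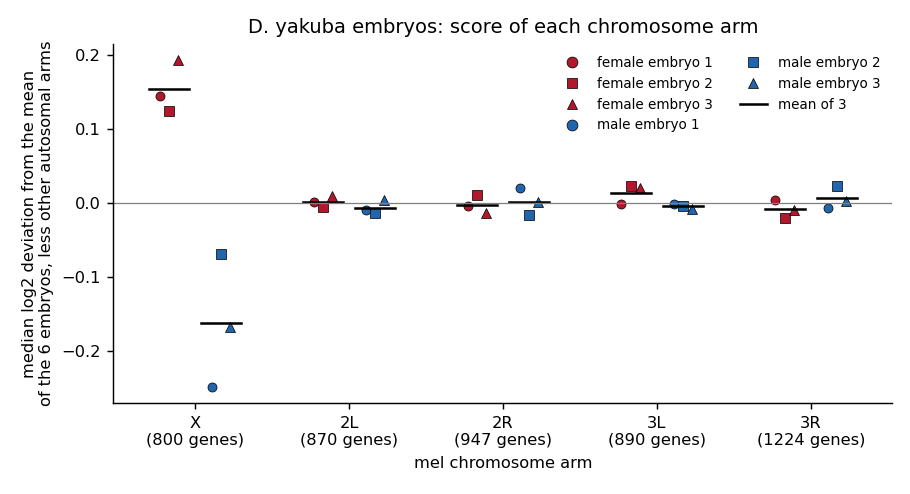
Score of each chromosome arm in each yak embryo, in log2 units, with females left of males and a black line at the mean of 3 embryos. The 3 females sit between 0.12 and 0.19 and the 3 males between −0.25 and −0.07 on the X, while all scores of the 4 autosomal arms lie near 0.

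Single X genes differed widely in how far females exceeded males. Of the 800 X genes, 624 (78.0%) had a female minus male difference above 0, with a median of 0.28 and quartiles of 0.03 and 0.58 on the log2(FPKM + 1) scale. On other arms 49.2% of 3931 genes were above 0, with a median of −0.00 and quartiles of −0.12 and 0.10. A difference of more than 0.5 was found for 248 X genes, of which 16 exceeded 1. A further 264 X genes (33.0%) lay within 0.2 of no difference, and 78 were lower in females by more than 0.2. The higher female level was spread along the chromosome: in 5 consecutive segments of the yak X the median difference was 0.31, 0.31, 0.24, 0.27 and 0.28 over 159 or 160 genes each. The scale understates the change of genes with low values, since 1 was added before the logarithm.

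**Figure D2:**
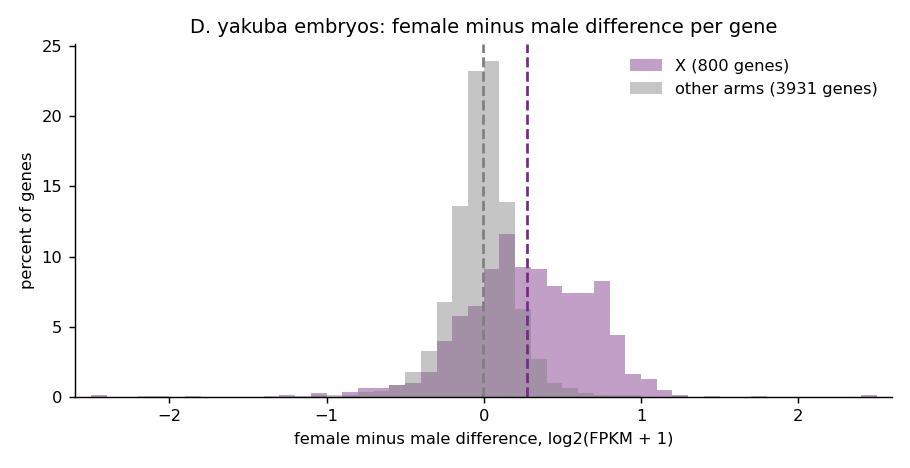
Female minus male difference in log2(FPKM + 1) of each gene with a mean above 1 FPKM in yak embryos, as a percent of the 800 X genes and of the 3931 genes of other arms. Dashed lines mark the medians of 0.28 for the X and −0.00 for other arms, and the X genes reach further to the right.

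The yak eggs allowed X genes to be grouped by the amount of maternal RNA, measured in libraries that the comparison of the sexes did not use. X genes whose RNA was scarce in eggs differed more between the sexes than X genes whose RNA was abundant there. For 71 X genes below 1 FPKM in eggs, the X score against autosomal genes of the same class was 0.19, 0.17 and 0.24 in females, against −0.21, −0.17 and −0.17 in males. For 68 X genes at 100 FPKM or above in eggs it was 0.05, 0.07 and 0.02 in females, against −0.03, −0.00 and −0.09 in males. Both classes kept all females above all males. The female minus male difference was 0.38 in the class below 1 FPKM, 0.41 between 1 and 10 FPKM (97 genes), 0.33 between 10 and 100 FPKM (564 genes) and 0.089 in the class of 100 FPKM and above. The last value was 0.053 without female 1 and 0.052 without male 3 (exact permutation p = 0.2 in both). The lowest class less the highest gave 0.29, against a pooled SD of 0.059 (exact permutation p = 0.1, two-sided, the smallest possible).

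The authors' predicted origin of each yak transcript gave a smaller contrast. Genes classed zygotic had an X difference of 0.42 (69 genes), those classed as both maternal and zygotic 0.33 (70 genes) and those classed maternal 0.30 (661 genes). Zygotic less maternal was 0.12, against a pooled SD of 0.031 (exact permutation p = 0.1, two-sided). It was 0.10 without female 1 and 0.09 without female 2 (exact permutation p = 0.2 in both). The class is itself a prediction from levels in eggs and embryos. By level in the embryo, X genes of 1 to 10 FPKM differed by 0.37 (290 genes) and those of 10 to 100 FPKM by 0.38 (407 genes). Those of 100 FPKM or above differed by 0.070 (103 genes), or 0.044 without male 3. The value of this class was 0.051 without female 2 and 0.054 without female 3 (exact permutation p = 0.2 in both). Of these 103 abundant X genes, 68 lay within 0.2 of no difference, and 8 of them encode ribosomal proteins. Ribosomal protein genes of all arms had slightly lower values in females, with a median difference of −0.14, and 0 passed the test. Of the 56, 52 had a negative difference, against 40.8% of genes of other arms at 100 FPKM or above. The median deviation of the ribosomal protein genes was 0.09, −0.31 and 0.03 in the females, against 0.21, 0.12 and −0.11 in the males. Female 2 stood apart and the sexes overlapped.

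**Figure D3:**
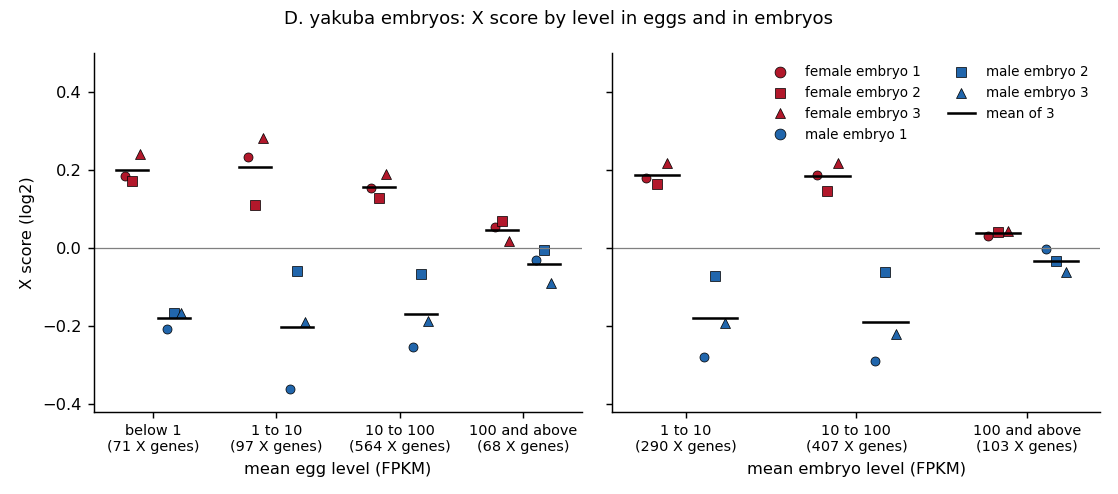
X score (log2) of each yak embryo in classes of the mean level in yak eggs (left panel) and of the mean level in the embryos (right panel), both in FPKM, with females left of males and a black line at the mean of 3. The distance between females and males is 0.38, 0.41, 0.33 and 0.089 from the lowest to the highest egg class. In both panels it is smallest for genes of 100 FPKM and above.

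Genes were next tested singly, with limma on log2(FPKM + 1) and an adjusted p (Benjamini-Hochberg) under 0.05 as the threshold. Of 5983 genes fitted, 162 (2.71%) were called higher in females, and 158 of these were on the X, 15.6% of the 1014 X genes fitted. Called higher in males were 17 genes (0.284%), 7 on the X (0.69%) and 10 elsewhere (0.201%). On other arms 4 genes (0.0805%) were called higher in females. Without regard to the test, all 3 females stood above all 3 males for 7.4% of genes, 311 on the X (30.7% of X genes) and 132 elsewhere (2.66%). They stood below all males for 2.96%, 29 on the X (2.86%) and 148 elsewhere (2.98%). Among the called genes the groups did not overlap for 161 of 162 and for 15 of 17.

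These calls rest on a spread estimated over 22 embryos of 4 species, and yak embryos varied more than the others. In a fit of the 6 yak embryos alone limma called 0 genes, the smallest adjusted p being 0.0711, and 331 genes higher in females and 104 higher in males had an unadjusted p under 0.05, among them 161 of the 162 and 16 of the 17 genes called above. Leaving out female 1, 2 or 3 in turn gave 117, 159 or 111 calls higher in females and 8, 21 or 21 higher in males. Leaving out male 1, 2 or 3 gave 100, 139 or 192 higher in females and 18, 20 or 25 higher in males. Of these calls, X genes higher in females numbered 94 to 180, with 104 without female 3 and 94 without male 1. X genes higher in males numbered 3 without female 1, 4 without male 2 and 5 to 8 in the other fits. Genes of other arms higher in males numbered 5 without female 1, 16 without female 3 or male 2, 17 without male 3, and 11 or 14 in the other fits. Called in all 6 of these fits were 81 genes higher in females, 80 of them on the X, and 7 higher in males.

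The 158 X genes called higher in females had differences of 0.42 to 2.40 with a median of 0.73, and 137 of them lay between 0.5 and 1. Their median level was 15.6 FPKM, against 17.1 FPKM over all 800 expressed X genes, and 86.7% of them were classed maternal, against 82.6% of the expressed X genes. The egg level was above the level of both sexes for 78 of them (49.4%), between females and males for 49 and below both for 31. Over the 800 expressed X genes these counts were 377 (47.1%), 86 and 337. By egg level, calls were made for 15.5% of expressed X genes below 1 FPKM in eggs, 17.5% between 1 and 10, 22% between 10 and 100, and 7.35% at 100 FPKM or above. By level in the embryo, the share was 14.8% at 1 to 10 FPKM, 26.3% at 10 to 100 FPKM and 6.80% at 100 FPKM or above. The 15.6% of X genes fitted, set beside the gene lists below, includes X genes at or below 1 FPKM.

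Sxl, the switch gene of female development, had the largest difference of all genes called higher in females. It stood at 428, 604 and 472 FPKM in females 1 to 3, against 83.8, 101 and 94.7 FPKM in males 1 to 3, with 32.7 and 34.0 FPKM in the eggs. Every female was far above every male, and both sexes were above the eggs. The difference was 2.40 ± 0.17 (SE; limma, adjusted p = 1.72e-07), and the female mean was 5.38 times the male mean. Deposited coordinates place the gene at 14367283 to 14384279 of the yak X, on an assembly not named in the sources used here.

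The X signal elements upstream of Sxl were less clear-cut. Of sisA, sc, run and os (the ligand upd1), all had a positive difference, 0 were called, and sc alone had no overlap. The element sisA, a bZIP factor, stood at 166, 129 and 176 FPKM in females, against 138, 85.5 and 104 FPKM in males, with 0 in both eggs. Female 2 fell below male 1, and the difference of 0.54 did not pass (limma, adjusted p = 0.855). The bHLH activator sc (scute) stood at 12.4, 13.4 and 11.7 FPKM in females, against 4.64, 3.83 and 11.3 FPKM in males. Male 3 came close to the females, and the difference of 0.96 missed the threshold (limma, adjusted p = 0.0807). For run, a Runt-domain factor, the difference was 0.29 and for os it was 0.12, with overlap in both.

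Both neighbours of sc in the achaete-scute complex, proneural bHLH genes, were called. The gene ac (achaete) stood at 14.1, 15.7 and 15.0 FPKM in females, against 4.61, 4.82 and 8.75 FPKM in males, a difference of 1.22 ± 0.26 (SE; limma, adjusted p = 0.0107). It was at 0 in both eggs. Male 3 was again the highest male, and the call was lost without male 1 or without male 2. The gene l(1)sc (lethal of scute) stood at 114, 131 and 100.4 FPKM in females, against 68.6, 63.8 and 64.8 FPKM in males. The males were nearly equal, all females were higher, and the difference was 0.79 ± 0.14 (SE; limma, adjusted p = 0.00249). In the mel annotation ac, sc and l(1)sc all overlap CG32816, a gene on the other strand, and strand was not stated for these libraries.

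Other regulators of Sxl were mostly level between the sexes. Of 12 genes listed, 10 were in the table, and 1 was called. It was 1 of 3 on the X, against 15.6% of all X genes fitted and 26.3% of those at 10 to 100 FPKM. This was hop, the JAK kinase that carries the os signal. It stood at 13.7, 15.8 and 15.9 FPKM in females, against 7.15, 7.62 and 10.3 FPKM in males, a difference of 0.80 ± 0.14 (SE; limma, adjusted p = 0.00303) that was called in all 6 leave-one-out fits. The autosomal members gave differences between −0.29 for emc and 0.13 for dpn, both encoding HLH repressors of Sxl activation. Among genes that act downstream of Sxl in sex determination, tra2, a splicing factor, had a difference of 0.07. The gene dsx was listed at 0 in all 6 embryos and both eggs. The genes da, her, tra, fru and ix were not analysed here.

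**Figure D4:**
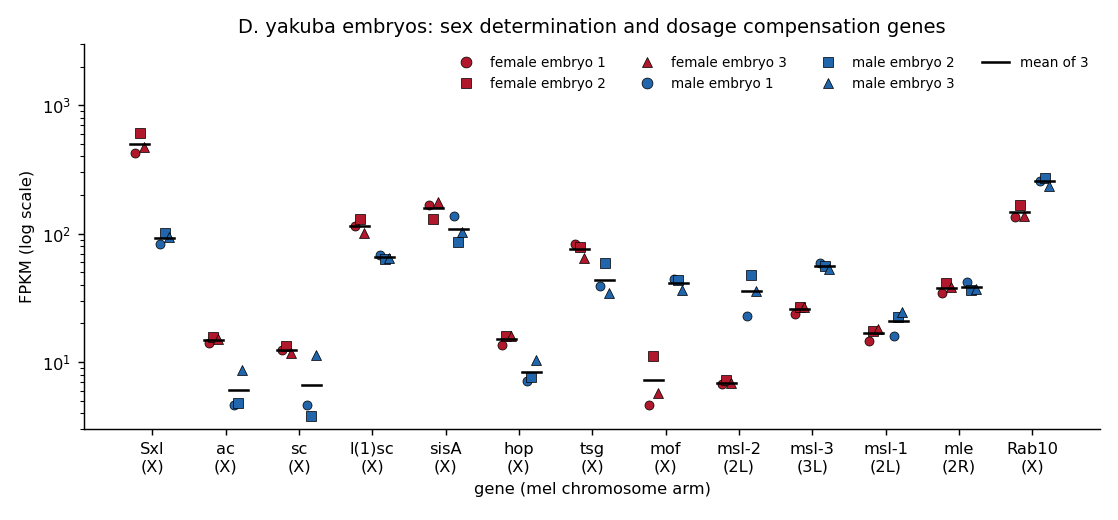
FPKM (log axis) of 13 genes of sex determination, dosage compensation and early patterning in each yak embryo, with females left of males and a black line at the mean of 3. Females are above males without overlap for Sxl, ac, sc, l(1)sc, hop and tsg, and below them without overlap for mof, msl-2, msl-3 and Rab10, while sisA, msl-1 and mle overlap.

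The dosage compensation genes showed the opposite direction to most of the X. Of the 5 protein genes of the MSL complex, 3 were called higher in males, mof, msl-2 and msl-3, and 0 higher in females, against 0.284% of all genes called higher in males. The gene mof, an X-linked histone acetyltransferase, stood at 4.63, 11.2 and 5.72 FPKM in females, against 44.3, 43.7 and 36.2 FPKM in males, with 31.9 and 29.0 FPKM in eggs. On the relative scale of FPKM, females were far below the egg level and males somewhat above it. The difference was −2.45 ± 0.23 (SE; limma, adjusted p = 8.34e-06), and the male mean was 5.75 times the female mean.

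The gene msl-2, on arm 2L, encodes the subunit made only in males. Its RNA stood at 6.72, 7.21 and 6.85 FPKM in females, against 22.8, 47.7 and 36.0 FPKM in males, and at 0.169 and 0.0475 FPKM in eggs. Females were nearly equal, males varied widely, and the difference was −2.14 ± 0.21 (SE; limma, adjusted p = 1.64e-05). The chromodomain protein gene msl-3, on 3L, stood at 23.8, 27.0 and 26.9 FPKM in females, against 59.1, 55.6 and 52.8 FPKM in males. Its difference was −1.08 ± 0.11 (SE; limma, adjusted p = 2.14e-05), with 43.1 and 46.3 FPKM in eggs, between the sexes. The scaffold gene msl-1 (2L) gave −0.29 and the helicase gene mle (2R) −0.02, both with overlap. All 3 called genes were called in each of the 6 leave-one-out fits.

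Within a chosen list of genes for zygotic patterning and cellularization, those called were all on the X. Of the 60 genes listed, 44 were in the table and 43 passed 1 FPKM. On the X, 3 of 13 were called higher in females (ac, l(1)sc and tsg), with a median difference of 0.30, and 11 of the 13 were positive. The share called was 15.6% of all X genes fitted, 14.8% of those at 1 to 10 FPKM and 26.3% at 10 to 100 FPKM. On other arms 0 of 30 were called, against 0.0805% of genes of other arms called higher in females, with a median of 0.02. The gene tsg (twisted gastrulation), which modulates BMP signalling along the back of the embryo, stood at 83.5, 78.2 and 65.3 FPKM in females, against 39.0, 58.7 and 34.2 FPKM in males. Females 1 to 3 were all above the highest male, male 2, and the difference was 0.80 ± 0.18 (SE; limma, adjusted p = 0.0136), a call that was lost without female 1, male 1 or male 3.

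The other X-linked members of that list did not pass the test. The repressor gene brk gave 0.43 with no overlap, at 34.6, 53.7 and 42.6 FPKM in females, against 30.8, 32.8 and 31.5 FPKM in males. The BMP antagonist sog gave 0.18, the homeobox genes oc and vnd 0.23 and 0.30, fog, a secreted trigger of gastrulation movements, 0.44 and nullo 0.60, all with overlap. The zinc finger gene disco gave −0.55, with 3.46 FPKM in female 2 against at least 6.09 FPKM in the other embryos. Autosomal members of the list ranged in both directions, and 0 passed the test. Of the most abundant, the mesoderm gene twi gave 0.17, the pair-rule gene ftz 0.11 and the gap gene Kr 0.02. Less abundant ones gave −0.65 for eve, a pair-rule gene, −0.43 for tll, of the terminal system, and 0.52 for gsb, a segment polarity gene, all with overlap.

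Among genes of the maternal axis systems, 29 of 38 listed were in the table and 3 were called higher in females. All 3 were X-linked, of 6 expressed X genes of the list. The share called was 15.6% of X genes fitted and 26.3% of those at 10 to 100 FPKM. The 3 genes were phl and Dsor1, the Raf and MEK kinases of the terminal pathway, and dsh, the Dishevelled protein of the Wnt pathway. The gene phl stood at 29.0, 30.7 and 32.8 FPKM in females, against 12.6, 14.3 and 16.9 FPKM in males, a difference of 1.04 ± 0.13 (SE; limma, adjusted p = 9.78e-05). Its eggs were at 43.8 and 39.3 FPKM, above both sexes. Values of Dsor1 were 38.1, 34.7 and 42.5 FPKM in females, against 21.2, 21.7 and 20.7 FPKM in males, and its difference was 0.82. For dsh it was 0.77, with 30.4, 28.2 and 30.0 FPKM in females, against 14.3, 17.6 and 19.0 FPKM in males. All 3 were called in every leave-one-out fit, and no females overlapped males.

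The X-linked Wnt genes arm (β-catenin) and sgg (GSK3) were more abundant and differed less. For arm the values were 961, 1017 and 1119 FPKM in females, against 809.6, 780.4 and 755 FPKM in males, a difference of 0.40 (limma, adjusted p = 0.0584) with no overlap. For sgg the difference was 0.24, and the groups overlapped. The autosomal genes of the maternal list had a median difference of 0.04, with 0 of 16 called.

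Of 21 listed genes of the blastoderm cell cycle, 15 were in the table, and the 2 on the X were both called higher in females. The share called was 15.6% of all X genes fitted and 26.3% of those at 10 to 100 FPKM. The gene mei-41, the ATR kinase of the replication checkpoint, stood at 12.3, 15.1 and 14.1 FPKM in females, against 5.29, 5.90 and 7.58 FPKM in males (difference 1.04 ± 0.19, SE; limma, adjusted p = 0.00334). The gene rap (fzr, an activator of the anaphase-promoting complex) stood at 63.1, 53.4 and 59.7 FPKM in females, against 33.2, 45.6 and 37.3 FPKM in males, with a difference of 0.60 that was lost without female 1 or male 1. None of the 13 autosomal members was called, and the median there was 0.06. Among them CycA, at 611, 739.9 and 622 FPKM in females, against 547, 562 and 466 FPKM in males, came nearest, with 0.32 (limma, adjusted p = 0.0595). In the Notch pathway 15 of 17 listed genes were in the table and 1 was called, 1 of 2 on the X. This was dx, an E3 ligase that binds Notch, with a difference of 0.65 in the full fit and in 1 of 6 leave-one-out fits. For X genes the same shares of 15.6% and 26.3% apply.

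The X genes with the largest differences after Sxl and ac were a mixed group. The 12 leading X genes were taken by size of difference among called genes without overlap, so the choice itself fixed the lack of overlap. Of the 12, CG9992, tay, trr, CG14446, CG42569, CG7332, Myo10A, FBgn0030555, phl and mei-41 had differences of 1.04 to 1.16. The gene trr, a histone methyltransferase of enhancers, stood at 30.6, 33.2 and 34.1 FPKM in females, against 12.6, 15.3 and 16.2 FPKM in males, a difference of 1.10. Every female was well above the highest male, male 3. The gene Myo10A, an unconventional myosin, stood at 58.3, 53.5 and 56.5 FPKM in females, against 23.3, 29.3 and 27.4 FPKM in males, with 0.810 and 1.07 FPKM in eggs (difference 1.05 ± 0.16, SE; limma, adjusted p = 0.00107). Both sexes were far above the eggs on this relative scale.

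Others of these 12 genes had less RNA in embryos of both sexes than in eggs, on the relative scale of FPKM. The gene CG7332 stood at 13.6, 11.5 and 12 FPKM in females, against 4.52, 5.53 and 6.06 FPKM in males, and at 42.5 and 46.6 FPKM in eggs. Its difference was 1.07 ± 0.12 (SE; limma, adjusted p = 5.09e-05), with both sexes well below the eggs. The gene CG42569 (Larp7, a La-related protein of the 7SK particle) stood at 5.38, 3.47 and 3.79 FPKM in females, against 0.934, 2.01 and 1.47 FPKM in males, and at 23.5 and 26.8 FPKM in eggs. FBgn0030555 (Fbxl4, an F-box protein) had lower eggs, at 7.35 and 5.20 FPKM, and stood at 23.5, 18.1 and 21.5 FPKM in females, against 8.70, 9.95 and 10.2 FPKM in males. Of the 12, only ac and CG14446 lost their call in any leave-one-out fit, CG14446 without male 1. In the mel annotation trr overlaps Coa8, CG42569 overlaps amx, phl overlaps the protein-coding gene CG2854 on its own strand and others on the other strand, and mei-41 overlaps genes on the other strand.

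Outside the MSL complex, 14 genes were called higher in males, 6 on the X. The most abundant X-linked one was Rab10, a GTPase of vesicle traffic, at 136, 166 and 137 FPKM in females, against 259, 272 and 234 FPKM in males. The eggs stood at 131 and 111 FPKM, near the female level on the relative scale of FPKM. Its difference was −0.80 ± 0.11 (SE; limma, adjusted p = 0.00039), it had no overlap, and it was called in all 6 leave-one-out fits. The phosphatase gene l(1)G0232 (Ptpmeg2), also X-linked, stood at 14.7, 15.7 and 17.6 FPKM in females, against 23.9, 29.5 and 31.0 FPKM in males, a difference of −0.77 that was likewise called in all 6. Its eggs were at 57.9 and 56.8 FPKM, above both sexes. In the mel annotation l(1)G0232 overlaps CG3106 on its own strand.

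The 4 other X genes were less stable. CG9940 (Nadsyn, an NAD synthetase), CG42248, CG8915 and CG33181 had differences of −1.26, −0.78, −0.76 and −0.69 without overlap, and were called in 3, 1, 3 and 3 of the 6 leave-one-out fits. On other arms CG14303, CG14947, tap, CG10462, FBgn0035131, CG5721, CG9772 and FBgn0035786 were called. CG14303 (3R) stood at 17.4, 21.1 and 9.61 FPKM in females, against 53.9, 35.6 and 31.8 FPKM in males (difference −1.31 ± 0.25, SE; limma, adjusted p = 0.00449). CG10462 (2L) stood at 1.69, 1.81 and 1.89 FPKM in females, against 4.23, 3.18 and 3.73 FPKM in males, with 25.1 and 26.2 FPKM in eggs. Both were called in all 6 leave-one-out fits, and CG14947, which stayed at or below 1.19 FPKM in all embryos, in 5. The remaining 5 were called in 1 to 3 of them, and FBgn0035131 (mthl9) and FBgn0035786 (Tsp66A) had values that overlapped between the sexes. For FBgn0035786 the difference was 0 in mel, pse and vir. In the fit of the yak embryos alone its unadjusted p was 0.0743 (limma). Of all 17 genes higher in males, 12 were classed maternal and 5 zygotic. The eggs were above both sexes for 7 (41.2%), between them for 3 and below both for 7. Over all 4731 expressed genes these counts were 2008 (42.4%), 217 and 2506.

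On other arms 4 genes were called higher in females, and 4 to 12 when single embryos were left out, with 12 without male 3, 9 without female 2, 8 without male 2 and 7 without female 3. The largest difference, 0.90 ± 0.13 (SE; limma, adjusted p = 0.000717), was that of CREG on 3R, a secreted glycoprotein, at 131, 133 and 95.6 FPKM in females, against 54.2, 69.4 and 66.8 FPKM in males, with 13.5 and 14.5 FPKM in eggs. It was the only one of the 4 that kept its call in all 6 leave-one-out fits. The gene sca (scabrous, 2R), a secreted protein of neurogenesis, stood at 136, 103 and 101 FPKM in females, against 53.7, 83.1 and 54.0 FPKM in males. Its difference of 0.84 (limma, adjusted p = 0.0321) was called in 2 of the 6 fits, as were those of FBgn0010607 (2L, 0.54) and CG32944 (0.52).

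At the other end, many abundant X genes did not differ measurably. The 6 of 100 FPKM or above with the smallest differences were sqh (myosin regulatory light chain), Bx42 (a splicing factor), Spase25 (signal peptidase), dgt4 (augmin), ran (the nuclear transport GTPase) and CG2025 (Nrd1), each within 0.02 of 0 and with overlap. For sqh the values were 216, 201 and 227 FPKM in females, against 216, 232 and 195 FPKM in males, with 65.5 and 81.8 FPKM in eggs. Its embryo level was above the eggs in both sexes, yet no sex stood higher (difference 0.00 ± 0.079, SE). The SEs of the 6 ranged from 0.079 to 0.19. With 3 embryos of each sex, differences well above these SEs could also go uncalled. The smallest difference called higher in females on the X was 0.42.

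The other species were used to ask which yak differences were found there too. Of the 158 X genes called higher in females in yak, 85 were also called in mel (of 162 such X genes there), 63 in vir (of 155) and 58 in pse (of 140). The difference was positive for 155 of the 158 in mel, 148 in vir and 143 in pse. In yak itself 78.0% of expressed X genes were positive, and the same share in the other species was not taken. The fit also gave each gene a single spread for all species, so the calls in them were not independent. In yak alone 34 were called, which is not by itself a difference between species. Of the 17 genes called higher in males, 5 were also called in mel, 4 in vir and 3 in pse. The difference was negative for 9, 7 and 13 of the 17 there. The MSL genes mof and msl-2 were among those called in all 3 species, and msl-3 in mel and vir. The shares of all genes called higher in males or negative in these species were not taken. The 12 leading X genes were chosen for their yak values, and all but Sxl had a more positive difference in yak than in the 3 other species, as such a choice favours. In pse CG42569 had a difference of the opposite sign, −1.51 (limma, adjusted p = 6.19e-05).

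The difference itself was tested as the yak sex effect less the mean of those in mel and vir, where the same element is the X. In limma 1 gene passed (0.0167%), lower in yak, and 0 higher, while 130 genes higher and 219 lower had an unadjusted p under 0.05. That gene was CG8915, on the X. It stood at 6.46, 10.4 and 8.99 FPKM in yak females, against 13.7, 15.5 and 15.9 FPKM in yak males, a difference of −0.76. In mel it stood at 8.22, 10.6 and 11.5 FPKM in females, against 5.63, 4.60 and 6.43 FPKM in males, a difference of 0.76. In vir it stood at 11.5, 10.6 and 10.9 FPKM in females, against 6.17 and 5.82 FPKM in the 2 males kept, a difference of 0.78. The yak effect less their mean was −1.53 ± 0.22 (SE; limma, adjusted p = 0.0116), and the next smallest adjusted p was 0.205. The call was lost with a pseudocount of 0.1 (limma, adjusted p = 0.128), without female 1 (0.0570) and without male 2 (0.0620). It was also lost with the replicate number as a block (limma, adjusted p = 0.0556). In mel CG8915 overlaps f (forked) on the other strand.

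**Figure D5:**
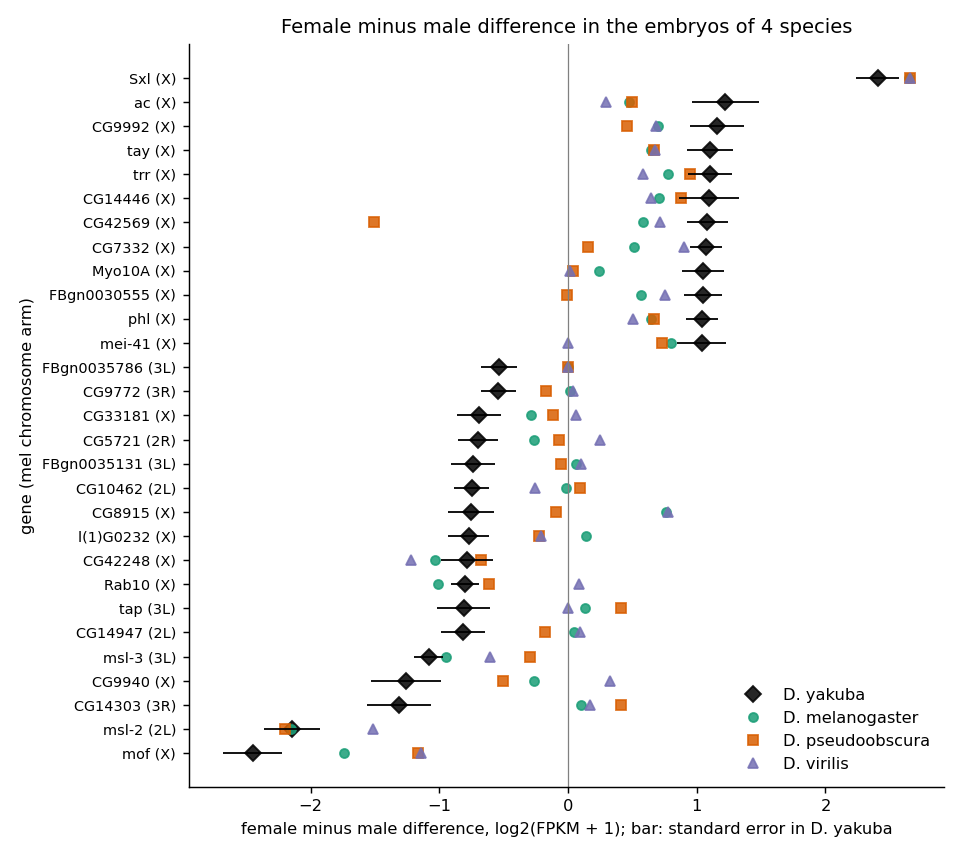
Female minus male difference in log2(FPKM + 1) of the 12 leading X genes and the 17 genes called higher in males in yak, shown for yak (black, with SE), mel, pse and vir, and ordered by the yak value. Sxl and msl-2 have large differences of the same sign in all 4 species, and CG8915 is at −0.76 in yak, with 0.76 in mel and 0.78 in vir.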

How the data were processed

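RNA of single embryos was sequenced by the authors on libraries of a standard Illumina TruSeq kit. Trimmed reads were aligned by the authors to annotated transcripts using Bowtie2, and gene levels are the sums of transcript levels from eXpress. The yak transcripts came from an annotation made in an earlier study, and mel transcripts came from FlyBase release 5. Versions of these tools and the yak assembly are not given in the sources used here. The deposited values are log10(FPKM + 1), in 6 tables with different scaling of the libraries (75th percentile of autosomal genes, none, median, 95th percentile, TMM, quantile). The 75th percentile table was the main one. The columns of group means were not used. The authors also deposited a class of origin for each gene (maternal, zygotic or both), for yak a prediction by a support vector machine.

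FPKM were recovered from the logarithms, and tests used log2(FPKM + 1). limma 3.58.1 in R 4.3.3 was fitted to 22 embryos in 8 groups (the 2 libraries that the study removed, a pse female and a vir male, left out), with moderated variances and a trend, the contrast yak female minus male, and Benjamini-Hochberg adjustment over 5983 genes with a group mean above 1 FPKM in any group. Scores per embryo used genes with a yak embryo mean above 1 FPKM and exact two-sided permutation of sex over the 20 relabelings (Python 3.11.15, pandas 2.3.3, NumPy 2.4.6). The code was tested on simulated data. p-values measure the spread between these single embryos.

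Genes were named by the following rule. The first were the 12 X genes with the largest difference among those called higher in females without overlap. Every gene called higher in males and every autosomal gene called higher in females followed. The 6 X genes of 100 FPKM or above with the smallest difference were added. So were the lists on Sxl, sex determination downstream of it and the MSL complex, and X genes of the patterning list. Genes called for a yak effect unlike mel and vir were named too. Of other lists, called genes or up to 4 of the most abundant were named. The genes nos, osk, byn, cad, eve, tll, gsb and RpL26 fall outside this rule and were chosen after their values were seen. The comparison, the gene lists and the tests were chosen with earlier results of these data known. Overlapping genes are those of a later mel annotation, and 172 genes had no symbol in the tables.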

Additional observations from a re-analysis of the deposited data

Results flagged for a closer look

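The sex difference of CG8915, an X-linked gene, was not the same in yak as in mel and vir by a test of the difference itself. The yak female minus male difference less the mean of those in mel and vir was −1.53 on the log2(FPKM + 1) scale (limma, adjusted p = 0.0116). The 3 yak females were below the 3 yak males, while the mel and vir females were above their males. In pse the gene was low in both sexes, at 1.30 and 0.816 FPKM in the 2 females kept, against 1.65, 1.06 and 0.901 FPKM in males. The call was lost with a pseudocount of 0.1 (limma, adjusted p = 0.128), without female 1 (0.0570) and without male 2 (0.0620). It was also lost with the replicate number as a block (limma, adjusted p = 0.0556). The cause was not tested.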

How the results depend on the processing

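Against 162 genes higher in females and 17 higher in males, a fit of the mel and yak embryos gave 101 and 12, and the 6 yak embryos alone gave 0 and 0. Leaving out single yak embryos gave 100 to 192 and 8 to 25, and a filter on a yak mean above 10 FPKM gave 127 and 9, with fewer genes tested. The other normalizations gave 138 to 186 higher in females. No named gene called in the main analysis changed sign in any of the 22 alternatives. Genes with a yak effect unlike mel and vir numbered 1 in the main analysis, 0 with a pseudocount of 0.1, 6 with a pseudocount of 10, 0 to 4 when single embryos were left out, 5 against the mean of mel, pse and vir, 4 against mel and 11 against vir. The X score difference of 0.32 became 0.17 with a pseudocount of 10 and 0.21 with no filter, and 0.26 to 0.36 without single embryos. Zygotic less maternal genes moved to 0.16 with quantile normalization and 0.22 with a pseudocount of 0.1, and to 0.091 to 0.13 without single embryos. With that pseudocount the lowest less the highest egg class gave 0.42 and the lowest less the highest expression class 0.40. Levels in eggs moved with the scaling of the libraries. At 100 FPKM or above in eggs were 68 expressed X genes in the main analysis, 140 without scaling and 113 with quantile normalization. Levels of embryos set beside those of eggs depend on that scaling. The cause of these shifts was not tested.

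Females and males carry the same replicate numbers, and whether the numbers pair them is not known. Same-numbered embryos had correlations of deviation of 0.24, −0.08 and 0.24. Females and males of unlike number had correlations from −0.29 to 0.07. With the replicate number as a block, limma called 124 genes higher in females and 16 higher in males, and 0 for the difference from mel and vir, where CG8915 had an adjusted p of 0.0556. Depth is unknown, and 3 embryos of each sex bound every p of a score at 0.1.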

Other observations

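Some genes known for expression at the posterior pole varied widely between single yak embryos of the same sex. Female 2 was low in byn, a T-box gene of the hindgut (30.5, 0.0745 and 34.6 FPKM in females 1 to 3, against 16.4, 47 and 25 FPKM in males 1 to 3), and in cad, the posterior homeobox gene (8.16, 0.484 and 8.61 FPKM in females, against 12.4, 9.77 and 5.56 FPKM in males). The germ plasm gene nos stood at 1.20, 0.219 and 29.4 FPKM in females, against 0.389, 27.5 and 13.3 FPKM in males, and pgc, which silences transcription in pole cells, at 4.33, 1.49 and 22.2 FPKM in females, against 3.58, 30.6 and 19.2 FPKM in males. Females 1 and 2 and male 1 were low in both. The eggs held 110.0 and 135 FPKM of nos and 304 and 344 FPKM of pgc. Other genes of the pole cell list varied less, with 420 to 498 FPKM for CycB, 13.8 to 20.6 FPKM for tud and 8.51 to 20.7 FPKM for aub over the 6 embryos, and osk was low in all. None of these genes was called different between the sexes.

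RpL26, a ribosomal protein gene on 3L, stood at 2069.8, 424 and 963 FPKM in females, against 1577, 1301 and 19.9 FPKM in males, with male 3 far below the rest. In male 3, 32 genes were the lowest of the 6 embryos by more than 2-fold, against 0 to 15 in each other embryo. These genes were chosen after their values were seen.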
